A study of Mus musculus with 2 samples.

Results

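The genes described here were the 8 heavy chain constant genes of the mouse immunoglobulin locus (Ighm, Ighd, Ighg3, Ighg1, Ighg2b, Ighg2c, Ighe and Igha), the kappa light chain constant gene Igkc, and Jchain. They are 10 of 55450 annotated genes, and they were listed by name, with earlier results of these data known. Each was taken with 50 kb either side, which gave 3 windows because the heavy chain genes lie in a row: a heavy chain window of 267.9 kb on chromosome 12, a kappa window of 100.5 kb on chromosome 6 and a Jchain window of 108.1 kb on chromosome 5. The windows held 97 of the 146575 accessible sites of the series. DNase-seq, which reads the positions where the nuclease DNase I can reach and cleave the DNA of nuclei, had been run on whole spleen of male B6CASTF1/J mice, a first-generation hybrid strain, at 10 days of age. The series is 1 group of 2 libraries, labelled biological replicates 1 and 2 from separately numbered males that share a donor identifier. There is no treatment and no contrast, so no test between conditions was possible, and all positions are on mm10, the assembly of the C57BL/6 parent.

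Antibody heavy chains are made from a joined V, D and J segment and 1 of the constant genes. A B cell starts with Ighm and Ighd and can switch to a constant gene further along, which changes the class of the antibody but not what it binds. As background, the locus is known to be driven by an enhancer in the intron between the J segments and Ighm and by a group of enhancers past the end of Igha, beyond which lie elements bound by the looping factor CTCF. The kappa locus has an enhancer in the intron before Igkc and others past its end. The annotation used here names none of these elements, so each site below is placed by its distance to a constant gene.

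A peak is a stretch the depositors called as accessible, with a signal that grows with the density of cuts in its library. A site is the union of peaks of the libraries that overlap by at least 1 bp. A footprint is a short stretch inside accessible DNA that the depositors called as protected from cutting. Replicate 1 had 130476 peaks with a median signal of 0.578, and replicate 2 had 95847 with a median of 0.553. Read depth is unknown, and signals were compared within a library or as ratios set against the ratio of all sites. As a tissue check, promoter peaks in both libraries were found at all 8 B cell markers and all 6 red cell markers. They were found at 3 of 6 T cell markers and at none of 4 liver genes. Over all protein-coding genes the share was 60.7%. The other 3 T cell markers had a promoter peak in replicate 1 alone. In a whole tissue, fewer cells with an open site and a less open site in each cell cannot be told apart.

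The strongest site of each regulatory stretch is shown first, because the results below turn on these stretches. The sequences are the GRCm38 reference on the plus strand, read 5′ to 3′, with capitals for any match to 11 short motifs or to the CTCF core consensus, on either strand. The Ighm intron site spans chr12:113427361-113427640, the site past Igha chr12:113222121-113222320 and the Igkc intron site chr6:70725700-70725948. The strongest site past Igkc spans chr6:70768861-70769040 and the next strongest chr6:70752561-70752740.
Ighm intron site: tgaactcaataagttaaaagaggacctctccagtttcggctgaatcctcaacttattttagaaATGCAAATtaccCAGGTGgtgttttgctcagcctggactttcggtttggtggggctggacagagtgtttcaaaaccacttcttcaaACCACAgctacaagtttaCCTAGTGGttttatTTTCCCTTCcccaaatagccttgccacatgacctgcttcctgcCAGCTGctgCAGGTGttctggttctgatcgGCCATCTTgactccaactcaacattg
Strongest site past Igha: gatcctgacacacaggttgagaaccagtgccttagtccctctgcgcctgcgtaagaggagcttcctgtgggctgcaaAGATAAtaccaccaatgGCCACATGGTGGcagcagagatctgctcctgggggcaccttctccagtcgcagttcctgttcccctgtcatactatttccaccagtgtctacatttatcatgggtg
Igkc intron site: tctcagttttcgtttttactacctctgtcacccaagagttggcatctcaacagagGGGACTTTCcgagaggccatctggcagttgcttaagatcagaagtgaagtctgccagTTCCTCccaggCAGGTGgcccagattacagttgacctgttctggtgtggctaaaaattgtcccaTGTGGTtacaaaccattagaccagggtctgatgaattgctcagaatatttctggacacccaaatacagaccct
Strongest site past Igkc: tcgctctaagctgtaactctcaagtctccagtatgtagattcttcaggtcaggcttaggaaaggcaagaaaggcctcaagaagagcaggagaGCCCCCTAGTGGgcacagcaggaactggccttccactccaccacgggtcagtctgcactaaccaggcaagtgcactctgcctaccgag
Next site past Igkc: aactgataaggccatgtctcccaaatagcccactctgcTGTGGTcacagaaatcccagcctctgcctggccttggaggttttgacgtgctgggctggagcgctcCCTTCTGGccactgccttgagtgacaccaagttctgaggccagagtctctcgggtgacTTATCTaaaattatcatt

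The remaining sequences were chosen after their values were seen, for the motifs they hold. They are weaker sites past Igha at chr12:113228221-113228520 and chr12:113244766-113245045, and the middle 300 bp (chr6:70735530-70735829) of a site past Igkc.
Weaker site 26.3 kb past Igha: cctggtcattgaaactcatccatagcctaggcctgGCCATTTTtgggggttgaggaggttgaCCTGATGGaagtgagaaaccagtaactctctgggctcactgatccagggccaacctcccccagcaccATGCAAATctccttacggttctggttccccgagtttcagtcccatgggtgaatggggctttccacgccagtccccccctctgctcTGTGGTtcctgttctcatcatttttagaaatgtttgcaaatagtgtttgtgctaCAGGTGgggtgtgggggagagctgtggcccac
Weaker site 9.79 kb past Igha: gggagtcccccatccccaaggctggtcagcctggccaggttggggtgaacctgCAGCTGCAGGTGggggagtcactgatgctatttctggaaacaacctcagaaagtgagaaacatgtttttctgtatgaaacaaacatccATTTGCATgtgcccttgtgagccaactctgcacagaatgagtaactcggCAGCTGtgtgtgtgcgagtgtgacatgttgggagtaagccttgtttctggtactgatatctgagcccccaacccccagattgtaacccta
Site 8.53 kb past Igkc: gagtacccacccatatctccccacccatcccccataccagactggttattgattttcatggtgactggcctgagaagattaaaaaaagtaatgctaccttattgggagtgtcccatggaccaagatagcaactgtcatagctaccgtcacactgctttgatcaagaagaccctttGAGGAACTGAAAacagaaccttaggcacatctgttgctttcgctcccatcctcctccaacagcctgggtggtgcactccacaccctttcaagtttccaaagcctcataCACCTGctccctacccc

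The heavy chain, kappa and Jchain windows together held 43 sites found in both libraries, and 3 of these overlapped one of the genes. Of the 97 sites, 43 (44.3%, exact binomial 95% interval 34.2 to 54.8) held a peak of both libraries, against 49.9% of all sites of the series. The windows had 92 peaks and 217 footprints in replicate 1, and 63 peaks and 172 footprints in replicate 2. The heavy chain window had 25 sites in both of 72 (34.7%, 23.9 to 46.9), the kappa window 11 of 16 (68.8%, 41.3 to 89.0) and the Jchain window 7 of 9 (77.8%, 40.0 to 97.2). Sites found in 1 library made up most of the heavy chain window, with 37 in replicate 1 alone and 10 in replicate 2 alone. Without replicate 2 the heavy chain window had 68 sites, and without replicate 1 it had 35. Intervals cover counting error only, and sites of 1 window are not independent.

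Density around the genes differed along the heavy chain locus. With 50 kb either side, Igha had 12 sites in both, Ighe and Ighd 11 each, and Ighm and Ighg3 10 each. Ighg2c had 4, and Ighg1 and Ighg2b had 3 each. Igkc had 11 and Jchain 7. Neighbouring heavy chain genes share sites, because their windows overlap. Per 100 kb these counts came to between 2.85 at Ighg1 and 11.4 at Igha, with 10.9 at Igkc and 6.48 at Jchain, against a median of 5.52 and a 90th percentile of 14.8 over protein-coding genes with the same flanks. Igha stood at the 80.9th percentile of those genes, Igkc at the 79.4th, Jchain at the 56.5th, and Ighg1 at the 31.2nd, so no member was past the 90th percentile.

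**Figure D1:**
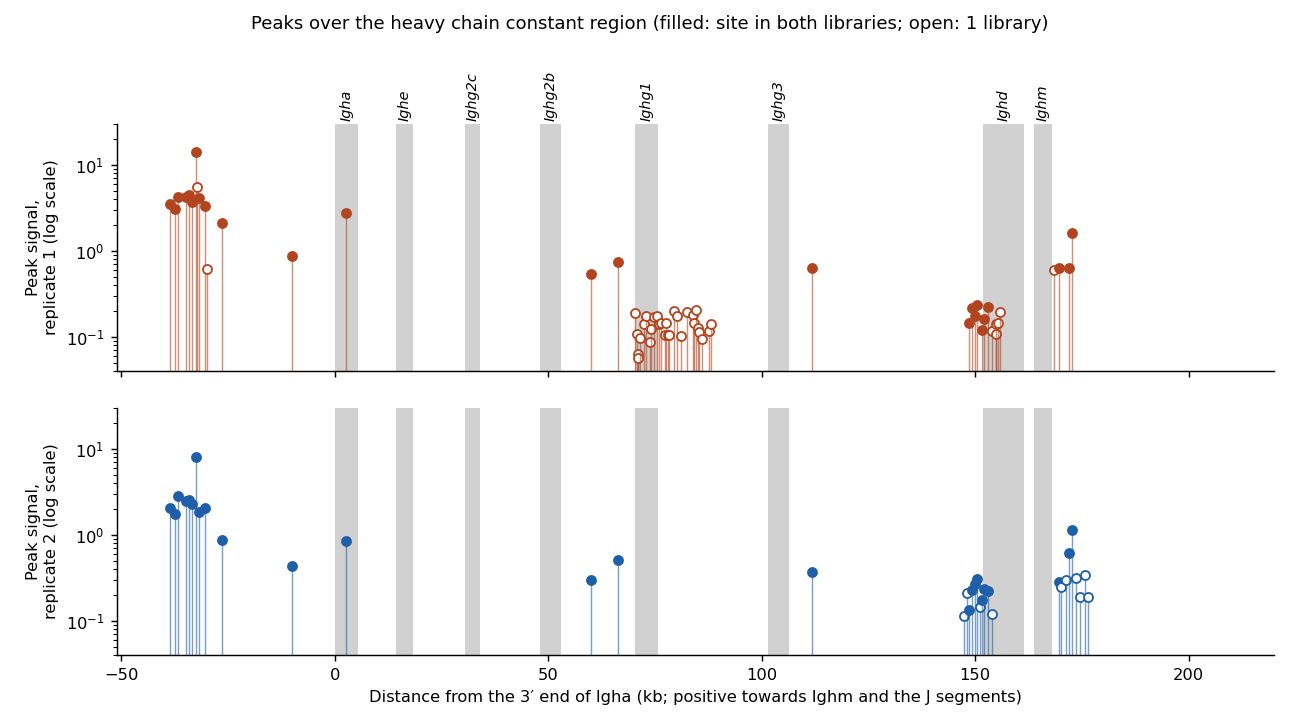
Peak signal (log scale) of each site over the heavy chain window in replicate 1 (top) and replicate 2 (bottom), against the distance in kb from the 3′ end of Igha. Filled points are sites in both libraries, open points sites in 1 library, and grey bands the constant genes. The highest points, up to 14.1 in replicate 1 and 8.15 in replicate 2, lie past Igha, and the dense low points at Ighg1 are in replicate 1 alone.

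Promoter peaks shared by both libraries were found at none of the 10 genes. A promoter was taken as 500 bp to each side of an annotated transcript start, and 60.7% of protein-coding genes had such a peak in both. Constant genes are normally joined to a V segment whose promoter drives them, and the start annotated for them is that of the constant segment. Ighm, which encodes the chain of the first antibody class, IgM, had a promoter peak of signal 0.604 in replicate 1 and none in replicate 2. Ighg1, for the IgG1 chain, had one of 0.176 in replicate 1 and none in replicate 2. Igkc had one of 0.691 in replicate 2, and the replicate 1 peak of the same site, with a signal of 0.821, lay just outside the promoter. With promoters of 1000 bp Igkc had a peak in both libraries. Jchain, which links IgM and IgA into polymers, had no peak at its promoter in either library. Jchain is a protein-coding gene at chr5:88519809-88527891 on the minus strand.

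Inside the genes, 3 sites were found in both libraries, 1 in Igha and 2 in Ighd. Of the 8 heavy chain genes 2 thus held a site in both, against 49.4% of 4715 protein-coding genes in the same range of lengths. Igha, at chr12:113254830-113260236 on the minus strand, encodes the chain of IgA, the class secreted at mucosal surfaces. Its intron held a site at chr12:113257361-113257560 whose signal was 2.72 in replicate 1 and 0.842 in replicate 2. The log2 ratio of replicate 1 to replicate 2 was 1.69 there, the highest of the 43 sites, against a median of 0.84 over all sites in both libraries and a 90th percentile of 1.45. The peak covered 3 overlapping pairs of footprints, the widest shared over 30 bp.

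Ighd, at chr12:113406604-113416324, encodes the chain of IgD, which naive B cells make together with IgM from 1 long transcript. It held many weak peaks, 10 in replicate 1 and 5 in replicate 2. The sites in both, at chr12:113406753-113407160 and chr12:113407261-113408320, had signals of 0.161 and 0.221 in replicate 1 and 0.239 and 0.226 in replicate 2. Both overlapped an exon at their midpoint, and both stood in the lowest 2% of sites in both libraries by mean signal. The weak peaks ran on past the end of Ighd, where 5 more sites in both lay within 3.20 kb of it, with signals of 0.120 to 0.236 in replicate 1 and 0.134 to 0.310 in replicate 2. In 6 of these 7 sites the signal was lower in replicate 1, with log2 ratios of -0.66 to -0.03, and in the seventh the ratio was 0.13. Over all sites in both the 10th percentile of the ratio was 0.02. With single peaks required to overlap by 50% of each, the count of sites inside a gene fell to 1, the one in Igha, and with peaks at or above the median signal of their library it was also 1.

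Ighg1 differed between the libraries. Ighg1, at chr12:113325240-113330523, encodes the IgG1 chain. Inside it replicate 1 had 11 peaks, with signals between 0.0563 and 0.176, and 10 footprints, while replicate 2 had no peak and no footprint. Stretches with a listed false discovery rate (FDR) below 0.05 covered 52.0% of the gene in replicate 1 and 0% in replicate 2. The weak peaks continued upstream of the gene towards Ighg3, and the gene and this gap together held 30 peaks in replicate 1 and none in replicate 2. The 20 kb bin around Ighg1 held 25 sites of replicate 1 alone, and 64 of 136288 such bins in the genome held as many or more. The median peak signal inside Ighg1 was at the 5.32nd percentile of all replicate 1 peaks. Of the 31-mers inside Ighg1, 99.3% occur once in GRCm38, and between Ighg1 and Ighg3 65.4% do. The part that repeated sequence plays in this block was not tested.

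The remaining constant genes had no peak in their bodies in either library. They were Ighm (chr12:113418558-113422730), Ighg3 (chr12:113356224-113361232), Ighg2b (chr12:113302965-113307933), Ighg2c (chr12:113285325-113288932), Ighe (chr12:113269260-113273248, the chain of IgE), Igkc (chr6:70726435-70726966, plus strand) and Jchain. Ighg3, Ighg2b and Ighg2c encode the other IgG chains of this annotation. Nor did any stretch with a listed FDR below 0.05 touch these 7 genes. Between 88.8% and 100% of their 31-mers are unique, with Ighg2b and Ighg2c at 88.8% and 89.0%. Peaks were also missing from the gaps between Igha and Ighe, Ighe and Ighg2c, and Ighg2c and Ighg2b in both libraries.

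Single sites stood near some of the IgG genes. A site at chr12:113314680-113314980, 6.75 kb upstream of Ighg2b, had signals of 0.536 in replicate 1 and 0.301 in replicate 2. The next, at chr12:113321141-113321440, 3.80 kb past the end of Ighg1, had 0.746 in replicate 1 and 0.507 in replicate 2. The third, at chr12:113366503-113366700, 5.27 kb upstream of Ighg3, had 0.630 in replicate 1 and 0.373 in replicate 2. In replicate 2 all 3 were below the median of the library, and none had overlapping footprints.

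**Figure D2:**
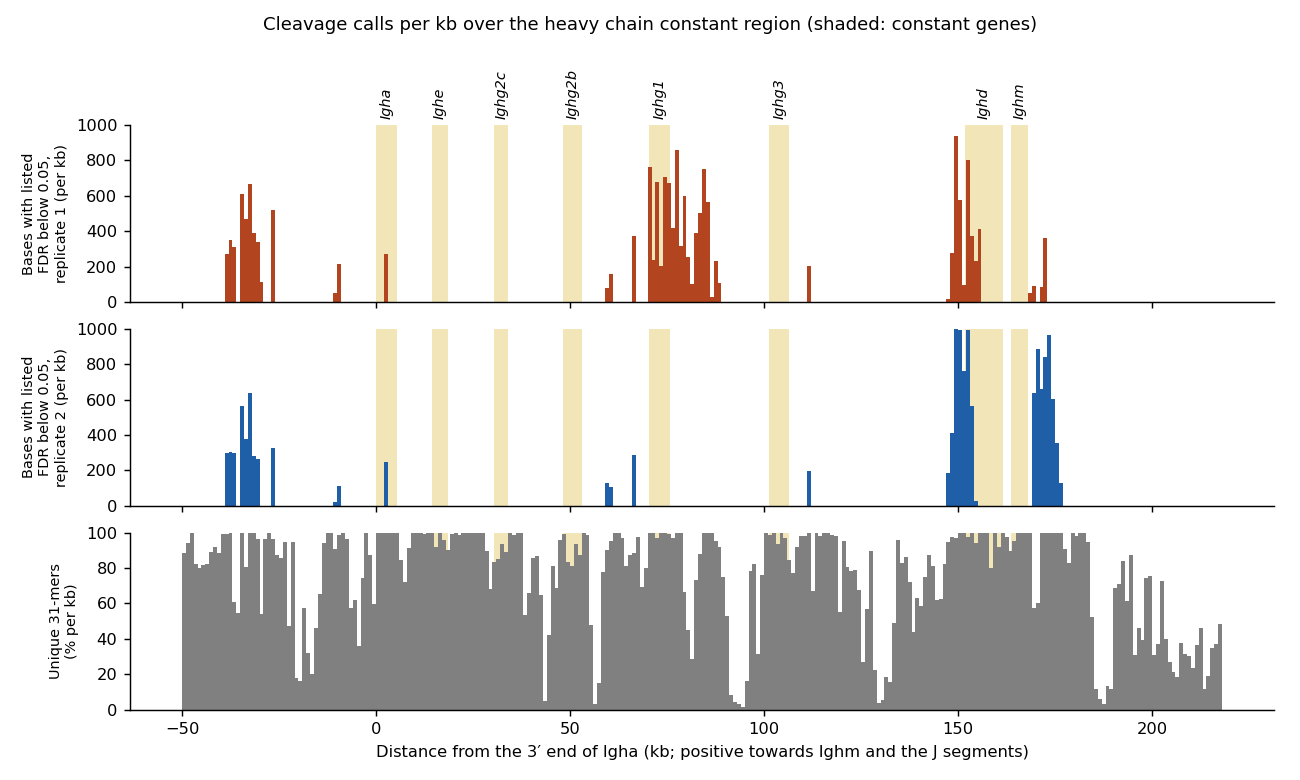
Bases per kb with a listed FDR below 0.05 in replicate 1 (top) and replicate 2 (middle), and the share of 31-mers found once in GRCm38 (bottom), against the distance in kb from the 3′ end of Igha. Shaded bands are the constant genes. Replicate 1 has a block over and beyond Ighg1 where replicate 2 has none. Replicate 2 has a block from the intron before Ighm to past the J segments. Replicate 1 has fewer bases in that intron and none over or past the J segments.

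The intron before Ighm, between Ighm and the segment Ighj4, was accessible in both libraries, with 3 sites in both of 6. The strongest, the Ighm intron site printed above, lay 4.63 kb upstream of Ighm and its signal was 1.61 in replicate 1 and 1.14 in replicate 2. Its mean was at the 61.4th percentile of all sites in both. The site at 3.91 kb had signals of 0.623 in replicate 1 and 0.620 in replicate 2. The site at 1.59 kb had 0.626 in replicate 1 and 0.281 in replicate 2. Of the 31-mers of this nearest site to Ighm 17.1% are unique in the genome, against 100% of those of the other 2. In replicate 1 the lowest listed FDR was 0.0187 at the 3.91 kb site and 0.0206 at the 1.59 kb site. With the shorter deposited peak lists each of these sites kept a peak in 1 library, while the strongest kept one in both.

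The stretch was covered far more widely in replicate 2. Bases with a listed FDR below 0.05 made up 10.1% of the intron in replicate 1 and 63.5% in replicate 2. Over the J segments Ighj4 to Ighj1 the shares were 0% in replicate 1 and 69.7% in replicate 2. Replicate 2 alone had 4 sites with midpoints over or beyond the J segments, with signals of 0.193 to 0.339. The widest of them, of 1260 bp, began inside the intron. Replicate 1 had no peak over the J segments. The lowest listed FDR at the strongest intron site was 4.89e-08 in replicate 1 and 2.46e-30 in replicate 2. Its log2 signal ratio of replicate 1 to replicate 2 was 0.50, below the median of 0.84 over all sites in both.

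The stretch past the end of Igha held the strongest accessibility of the heavy chain window. Of its 13 sites 11 were in both libraries, and 9 of those lay between 30.3 and 38.6 kb past Igha. Their signals were 3.08 to 14.1 in replicate 1 and 1.73 to 8.15 in replicate 2, all above the medians of their libraries. The strongest site, 32.5 kb past Igha, had signals of 14.1 in replicate 1 and 8.15 in replicate 2, and its mean was above 95.2% of all sites in both. The next strongest by mean, at chr12:113218001-113218180, 36.7 kb past Igha, had 4.27 in replicate 1 and 2.82 in replicate 2. It was followed by chr12:113220601-113220780, 34.1 kb past, with 4.47 in replicate 1 and 2.52 in replicate 2.

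The log2 ratios of these sites lay close together, and most of the sites shared footprints between the libraries. The median log2 ratio over the 11 sites past Igha was 0.79, within a range of 0.60 to 1.27, near the 0.84 of all sites. Of the 11, 10 had overlapping footprints in the libraries, against 77.4% of all sites in both. The widest shared stretch was 25 to 47 bp at the 9 clustered sites and 7 bp at the site 26.3 kb past Igha. A further peak of replicate 1, at chr12:113222401-113222580 with a signal of 5.48, lay beside the strongest site and had no peak in replicate 2. Over these bases replicate 2 had 3 footprints and a listed FDR as low as 1.19e-19. Closer to Igha the signal was lower: the site 26.3 kb past it had signals of 2.12 in replicate 1 and 0.875 in replicate 2, and the one 9.79 kb past it had 0.878 in replicate 1 and 0.440 in replicate 2.

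Matches to the CTCF core consensus were searched for after the cluster had been seen. The consensus spans 12 positions, 1 mismatch was allowed, and each site was searched over 300 bp on both strands. Of the 11 sites past Igha, 5 held a match, against 26.5% of all 73150 sites in both libraries and 30.3% of the strongest 25%. With no mismatch allowed 2 of the 11 did and with 2 allowed 9 did, against 8.29% and 54.1% of all sites. The 5 matches are given below on the strand of the match, with the core in capitals and 9 bases either side, ordered from far to near. Those 38.6, 37.3, 34.7 and 33.3 kb past Igha were on the plus strand and the one at the strongest site was on the minus strand. They span chr12:113216109-113216138, chr12:113217453-113217482, chr12:113220044-113220073, chr12:113221399-113221428 and chr12:113222206-113222235.
38.6 kb past Igha: gtggagaggCCACCAGGGGGTgcacaagca
37.3 kb past Igha: tgcaattggACACTAGGGGGCatttaagct
34.7 kb past Igha: tgcatctagCCACCAGGGGGCacatgagct
33.3 kb past Igha: tgcatctgtCCACCAGGGGGCacctgagca
32.5 kb past Igha: tctctgctgCCACCATGTGGCcattggtgg

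Of the 43 sites 13 (30.2%) held a core match, against 26.5% of all sites in both. Outside the stretch past Igha 8 of 32 did (25%), which is near that share. All 13 core matches of the 43 sites overlapped a footprint in both libraries, against 86.8% of the 19376 sites of the series with a match. The site inside Igha held one on the minus strand (chr12:113257455-113257484), with 1 mismatch. In the kappa window 4 of 11 sites in both held one, and the match of the strongest site past Igkc was exact (chr6:70768944-70768973, minus strand). In the Jchain window 3 of 7 held one. A match is a description of letters and does not show that CTCF was bound.
Inside Igha: cccaggtgtCCACAAGAGGGCagtgggggc
41.9 kb past Igkc: ctgctgtgcCCACTAGGGGGCtctcctgct

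Other motifs searched were those of factors known to act on immunoglobulin enhancers. The search covered 300 bp centred on each site, and the shares count any match in that window. The octamer ATGCAAAT, bound by POU2F1 and POU2F2, was in 3 of 43 sites, against 1.67% of all sites in both. They were the Ighm intron site and the sites 26.3 and 9.79 kb past Igha, and none of these octamers overlapped a footprint. GGGACTTTC, a form of the NF-kB motif, was in the Igkc intron site alone, against 0.403% of all sites, and overlapped a footprint in replicate 1 only. CAGGTG, an E box bound by E proteins such as TCF3, was in 14 of 43 sites (32.6%), against 23.9% of all sites. GAGGAA, the core of the motif of PU.1, was in 37.2% against 30.2%, and GAANNGAAA, a form of the IRF motif, in 14.0% against 8.52%. Some of the sites counted for CAGGTG and GAGGAA held a match only outside the called site or across its edge. For GAANNGAAA this was so at the site 25.6 kb past Igkc. In the site 8.53 kb past Igkc a GAGGAA and a GAANNGAAA overlapped, and neither lay in a footprint.

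The kappa window had strong sites on both sides of Igkc and a weaker one in the intron before it. The Igkc intron site, 0.487 kb upstream of the gene, had signals of 0.821 in replicate 1 and 0.691 in replicate 2. It held 4 footprints in replicate 1 and 1 in replicate 2, with no overlap between them. A further intron peak, of 0.799 at chr6:70724864-70725035, was called in replicate 1 alone.

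Past the end of Igkc 6 of 9 sites were in both libraries. The strongest, 41.9 kb past Igkc, had signals of 4.90 in replicate 1 and 2.82 in replicate 2, and lies in an intron of Rpia, an enzyme gene of the pentose phosphate pathway. The next, 25.6 kb past Igkc, had 4.36 in replicate 1 and 2.35 in replicate 2. These stood far above the sites closer to the gene. The site 8.53 kb past Igkc, at chr6:70735500-70735860, had 0.930 in replicate 1 and 0.540 in replicate 2, and the one 17.0 kb past it, at chr6:70743990-70744300, had 0.863 in replicate 1 and 0.540 in replicate 2. The site 2.27 kb past it had 0.773 in replicate 1 and 0.603 in replicate 2, and the one 24955 bp past it had 0.443 in replicate 1 and 0.394 in replicate 2. In the shorter of the deposited peak lists 3 sites past Igkc were in both libraries, and the site 8.53 kb past it was in 1.

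On the other side, towards the V segments, 4 sites in both lay between 11.9 and 16.9 kb from Igkc. The strongest, at chr6:70714321-70714520, had signals of 4.04 in replicate 1 and 2.63 in replicate 2. The farthest, at chr6:70709381-70709560, had 3.02 in replicate 1 and 1.77 in replicate 2, and its neighbour at chr6:70709761-70709940 had 1.73 in replicate 1 and 1.00 in replicate 2. All 4 had overlapping footprints. The fourth had 0.585 in replicate 1 and 0.666 in replicate 2, and 46.1% of its 31-mers are unique.

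**Figure D3:**
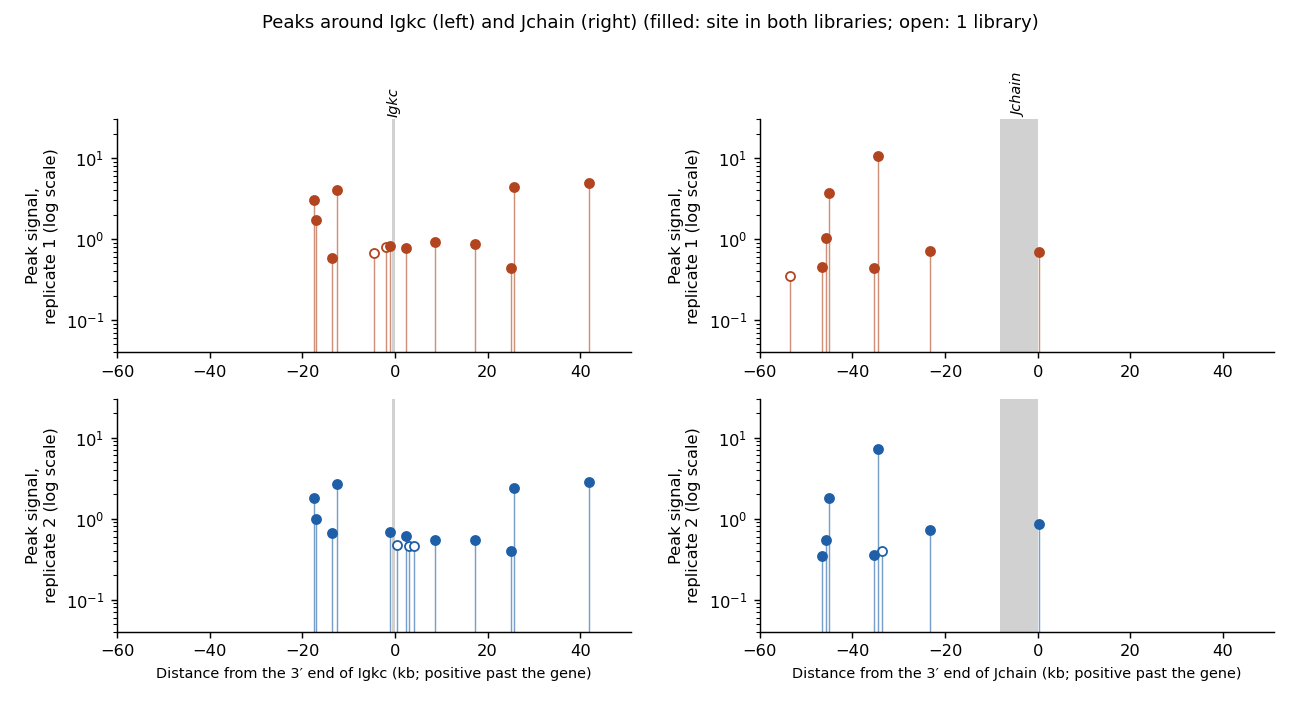
Peak signal (log scale) of each site around Igkc (left) and Jchain (right) in replicate 1 (top) and replicate 2 (bottom), against the distance in kb from the 3′ end of the gene, positive past it. Filled points are sites in both libraries and open points sites in 1 library. The highest points around Igkc lie 41.9 kb and 25.6 kb past it and 11.9 kb before it, and Jchain has a single site close to its end.

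Jchain had 1 accessible site close to it, and it lay past the end of the gene. This site, 0.269 kb past Jchain, had signals of 0.683 in replicate 1 and 0.846 in replicate 2. It held 2 pairs of overlapping footprints, the widest shared over 32 bp, and its log2 ratio of -0.31 was below the 10th percentile (0.02) of all sites. Upstream of Jchain the nearest site in both, at chr5:88543021-88543200 and 15.1 kb away, had 0.716 in replicate 1 and 0.724 in replicate 2. The strongest of the window, at chr5:88554121-88554420, had 10.5 in replicate 1 and 7.28 in replicate 2 and lies at the start of Utp3, a gene for ribosome assembly. A site at chr5:88564801-88565040, at the start of Rufy3, had 3.74 in replicate 1 and 1.82 in replicate 2, and its neighbour at chr5:88565301-88565900 had 1.03 in replicate 1 and 0.540 in replicate 2. The 2 strongest sites of the Jchain window were at starts of neighbouring genes.

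Footprints were called in both libraries at most window sites. Of the 43 sites 37 (86.0%, 72.1 to 94.7) had a footprint in both libraries, against 88.0% of all sites in both. Footprints overlapping by at least 1 bp were found at 28 (65.1%, 49.1 to 79.0), against 77.4%. By stretch they were at 10 of 11 sites past Igha, 4 of 4 on the V side of Igkc, 4 of 6 past Igkc, 4 of 6 upstream of Jchain, 2 of 8 between heavy chain genes and 1 of 3 in the intron before Ighm. The widest shared stretch was 1 bp at both sites between heavy chain genes and 4 bp at the Ighm intron site. Past Igkc it was 3 and 2 bp at the sites 2.27 and 17.0 kb away, and 30 and 27 bp at those 25.6 and 41.9 kb away. The log2 ratio of the signals had a median of 0.66 over the 43 sites, with medians of 0.68 in the heavy chain window, 0.68 in the kappa window and 0.38 in the Jchain window.

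**Figure D4:**
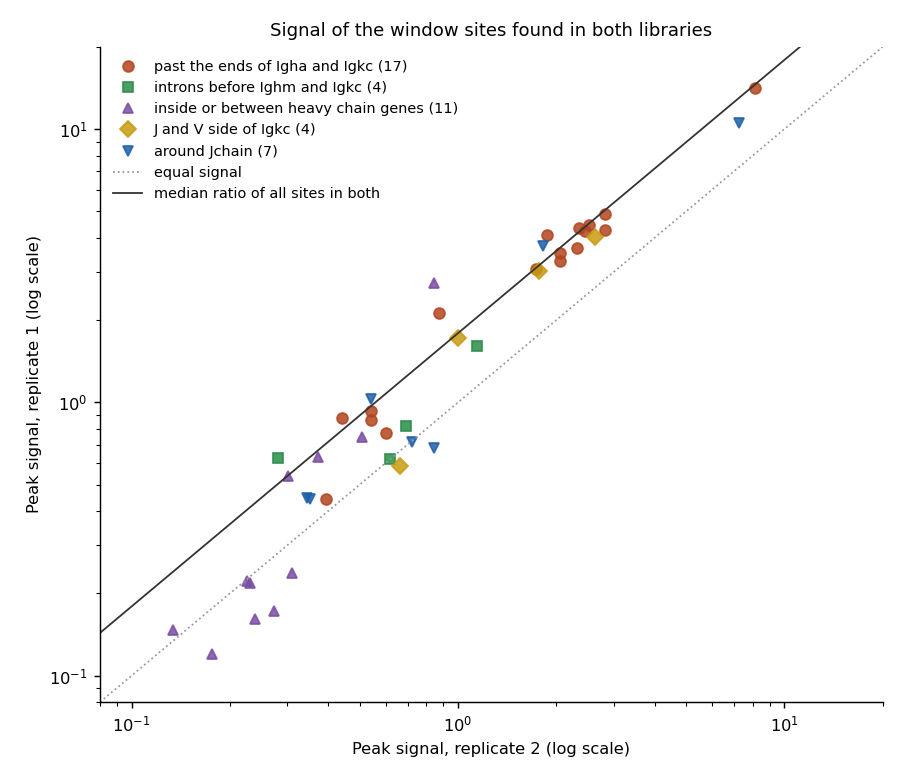
Signal in replicate 1 against signal in replicate 2 (both log scales) for the 43 sites in both libraries, marked by where they lie. The solid line is the median ratio of all sites in both (0.84 on the log2 scale) and the dotted line equal signal. Most sites past Igha and Igkc lie near the solid line, and the weak sites at Ighd lie near or below the dotted line.

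The promoters of factors known to act on immunoglobulin enhancers had peaks in both libraries. All 16 genes of the enhancer-bound list had a promoter peak in both libraries, against 60.7% of protein-coding genes. This list, too, was drawn up with earlier results known. By the mean of both libraries the highest was Yy1, with peak signals of 30.7 in replicate 1 and 8.54 in replicate 2, and the lowest was Mef2c, with 2.01 in replicate 1 and 0.917 in replicate 2. YY1 and MEF2C are transcription factors. Within a library the order differed, with Tcf3 highest in replicate 2 and Pax5 lowest in replicate 1 (1.53). Of 12 genes for class switching and antibody secretion 11 had a promoter peak in both. The highest of these was Tent5c, which stabilises immunoglobulin transcripts, with 22.1 in replicate 1 and 9.27 in replicate 2, and the lowest by the mean was Batf, with 1.17 in replicate 1 and 0.812 in replicate 2. In replicate 2 alone Sdc1 (0.590) and Mzb1 (0.787) were lower. Tnfrsf17, a receptor of plasma cells, had a promoter peak in neither library, while the other 5 of 6 plasma cell markers had one in both.

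Promoter peaks were also few at the other antigen receptor constant genes. Of 10 such genes, the lambda genes Iglc1, Iglc2 and Iglc3 and the T cell receptor genes Trac, Trdc, Trbc1, Trbc2, Trgc1, Trgc2 and Trgc4, 1 had a promoter peak in both libraries. This was Iglc2, with signals of 0.581 in replicate 1 and 0.440 in replicate 2, and Iglc1 had one of 0.510 in replicate 1 alone. The other 8 had none. Against this 1 of 10, the share among protein-coding genes was 60.7%. Iglc2 was also the only one of the 10 with sites in both inside the gene, of which it had 2. This count was not compared with genes of the same lengths. The density of sites in both around them was between 0 and 10.6 per 100 kb, with the highest value at Trac, against 2.85 to 11.4 around the members.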

How the data were processed

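DNase-seq of 2 spleen libraries was analysed from the files the authors deposited. The aligner, peak caller and footprint caller were not given in the sources used here. Used as they stand were the deposited peak signal, the deposited footprint list and the deposited FDR per stretch of bases (a p-value adjusted by the authors, listed below 0.05), per library, on mm10. The value column of the footprints is the constant 0.01 and was not used. Total reads are unknown.

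The members and gene lists were chosen with earlier results of these data known. The longer peak list of each library was used, and peaks overlapping by at least 1 bp were merged into sites, each with its strongest signal per library. Genes are GENCODE M21 and sequences GRCm38. The 5 strongest sites in both libraries per window were named, with every one inside a member or in the intron before it, and the 3 strongest past Igha and Igkc. Other sites were named after their values were seen. Uniqueness counted 31-mers over the 21 chromosomes. Motifs were searched over 300 bp centred on each site. Intervals are exact binomial (95%). With 1 group no test was made. Interval code and motif search were tested on simulated data (Python 3.11.15, NumPy 2.4.6, SciPy 1.17.1, Matplotlib 3.10.9).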

Additional observations from a re-analysis of the deposited data

How the results depend on the processing

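Of 61 values of the counts, shares and ratio under alternatives, 43 stayed within 1.5 times the count, within the interval of the share or within 1 SD of the ratio. Only the ratio could change direction, and it kept its direction under its alternatives. With peaks at or above the median signal of their library, the sites in both libraries numbered 13 in the heavy chain window, 4 in the Jchain window, 1 inside a member gene and 3 past Igkc, and 100% held a footprint in both. With the shorter deposited lists the kappa window had 6 and the stretch past Igkc 3. Reciprocal overlap of 50% left 1 site inside a member. Windows of 25 kb gave 15 sites in the heavy chain window, 2 at Jchain and 1 past Igha, and windows of 100 kb gave 24 in the kappa window and 19 past Igkc. These windows hold less or more sequence by construction. With promoters of 1000 bp, 1 member, Igkc, had a promoter peak in both.

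Leaving out a replicate gave 35 to 68 sites in the heavy chain window, 13 to 14 in the kappa window, 8 to 9 at Jchain, 4 to 22 inside members, 1 to 2 members with a promoter peak, 11 to 13 sites past Igha, 6 to 9 past Igkc, and 73.3% to 89.5% with a footprint. These values count all sites of the remaining library, so unlike the main values they do not require a peak in both. Of the 23 named sites 18 kept a peak in both libraries with the shorter lists, and 18 with peaks at or above the median. No paired analysis was possible because there is 1 group. Depth is unknown, so a missing peak is not shown to be closed DNA.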

Other observations

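Motifs of other lineage and signalling factors were also counted over 300 bp centred on each of the 43 sites. A match can therefore lie outside a narrower site. AGATAA, a form of the GATA motif, was in 8 sites (18.6%), against 12.7% of all sites in both libraries. TGTGGT, the core of the RUNX motif, was in 13 (30.2%), against 21.4%. TGANTCA, a form of the AP-1 motif that BATF also binds, was in the window of 3 (6.98%), against 7.97%. All 3 of these matches lay outside the called site. CAGCTG, another E box, was in 7 (16.3%), against 20.5%, and GCCATNTT, a form of the YY1 motif, was in 2 (4.65%), against 5.83%. CCANNAGG, which overlaps the start of the CTCF core, was in 12 (27.9%), against 29.2%. The strongest site past Igha held an AGATAA that overlapped a footprint in both libraries, as did its CTCF core match. The site 13.1 kb upstream of Igkc also held an AGATAA that overlapped a footprint in both.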
